A study of Mus musculus with 8 samples.

Results

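The mRNAs of 10 ubiquitin ligases that are enriched in skeletal muscle or tied to its wasting were followed in tibialis anterior (TA) muscle after knockdown of *Uba1*. They are *Fbxo32*, *Trim63*, *Trim54*, *Trim55*, *Fbxo30*, *Fbxo21*, *Fbxo40*, *Trim32*, *Cblb* and *Ubr2*. They were chosen by name, and all 10 were found among the 41709 genes with a transcript abundance, given in TPM. The data come from 8 TA muscles of 4 male C57BL/6J mice aged 3 months, taken 7 days after electroporation. Of the 2 legs of each mouse, one was given *Uba1* siRNAs and the other control non-targeting (NT) siRNAs, each as a pool of 4 siRNAs, and both legs were pretreated with hyaluronidase. Replicates 1 to 4 are the mice, so equal numbers mark the legs of 1 mouse. Titles of NT muscles begin with R and those of *Uba1* muscles with L, and the effect of the leg cannot be told apart from that of the siRNA. In 1 field of the labels the knockdown muscles are tagged UBA1, UBA2, UBA3 and UBA4 in turn, but their titles and descriptions all read UBA1, by which they were grouped. The share of the fibres and cells of a muscle that the siRNAs entered was not measured here.

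Ubiquitin is attached to proteins by a cascade. UBA1 activates it, a conjugating enzyme carries it, and an E3 ligase picks the substrate. In muscle, a small group of E3 ligases is known for mRNAs that increase when the muscle wastes after denervation, fasting, disuse or glucocorticoid excess. *Fbxo32* (atrogin-1) and *Trim63* (MuRF1) are the classic markers of this state and are targets of FoxO transcription factors. Insulin and IGF-1 signaling restrains FoxO, and some of the ligases in turn act on the insulin receptor substrate IRS1. The comparison asks whether these mRNAs differ when the enzyme at the top of the cascade is reduced.

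*Uba1* mRNA was at 60.6, 59.0, 63.6 and 59.1 TPM in NT replicates 1 to 4 and at 18.1, 6.77, 15.8 and 23.1 TPM in the knockdown replicates. Every knockdown muscle was below every NT muscle. The log2 fold change (log2FC) was -1.98 (standard error 0.290), with an adjusted p of 0.0527 in limma with Benjamini-Hochberg adjustment over 11530 genes and of 0.0278 with the mouse as a block. All log2FC values here are *Uba1* over NT siRNAs on log2(TPM + 1), a scale that understates the change of genes with few TPM. Markers of muscle fibers summed to between 96706 and 134209 TPM per muscle, and no marker gene of the other cell types examined was at 0 in all muscles. Mitochondrial transcripts took 39.9% to 50.3% of the TPM. The median log2FC of all genes tested was 0.11, with 81.8% above 0. Scaling each muscle by its median ratio to the others moved that median by 0.10, to 0.0016, and each ligase is given on both scales. In whole muscle, fewer cells of a type and less RNA per cell cannot be told apart.

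Positions are given on GRCm39. Among the F-box genes, *Fbxo32* spans 58039275 to 58078741 on chromosome 15 (minus strand), *Fbxo30* 11156770 to 11173806 on chromosome 10 (plus) and *Fbxo21* 118114795 to 118148269 on chromosome 5 (plus). *Fbxo40* spans 36783822 to 36810902 on chromosome 16 (minus). Among the TRIM genes, *Trim63* spans 134042393 to 134056948 and *Trim32* 65523201 to 65537781 on chromosome 4, both on the plus strand. *Trim54* spans 31273911 to 31298846 on chromosome 5 and *Trim55* 19698571 to 19746771 on chromosome 3, both plus. *Cblb* spans 51851588 to 52028729 on chromosome 16 (plus) and *Ubr2* 47239218 to 47321532 on chromosome 17 (minus). Exons of *Trim54* share 869 bases with *Mpv17* on the opposite strand, which averaged 14.6 TPM. They also share 635 bases with *Ucn*, listed at 0 TPM, and 540 bases with *Gm15469* at 0.234 TPM. *Fbxo32* shares 435 exonic bases with *Gm15943* (0.0721 TPM) and *Fbxo30* 211 bases with *4930432B10Rik* (0.0234 TPM), again on the opposite strand. *Ubr2* shares 125 bases with *Gm65233*. The library kit keeps no strand, so reads in these stretches cannot be assigned to either gene.

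Promoter sequences from RefSeq (250 bases before to 50 after a start) matched 8 of the 10 genes, with 9 windows in all. *Fbxo32* and *Trim55* were not matched. The RefSeq table is of GRCm38.p6, and each window was found exactly once in GRCm39, which gives the coordinates here. The stretch from 250 to 51 bases before the start is shown for *Trim63*, *Trim54* and *Fbxo21*. *Trim63* is known as a FoxO and glucocorticoid target, and *Trim54* is its relative. *Fbxo21* was the only ligase whose groups did not overlap in the TPM as deposited. Capitals mark GTAAACA (the FoxO motif) and TGTTCT (a core motif of steroid receptors) on either strand.
*Trim63*, chr4:134042181-134042380, plus strand: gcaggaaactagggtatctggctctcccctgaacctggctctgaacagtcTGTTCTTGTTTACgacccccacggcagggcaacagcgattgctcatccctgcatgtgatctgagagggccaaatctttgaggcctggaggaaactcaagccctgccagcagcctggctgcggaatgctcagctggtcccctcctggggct
*Trim54*, chr5:31273706-31273905, plus strand: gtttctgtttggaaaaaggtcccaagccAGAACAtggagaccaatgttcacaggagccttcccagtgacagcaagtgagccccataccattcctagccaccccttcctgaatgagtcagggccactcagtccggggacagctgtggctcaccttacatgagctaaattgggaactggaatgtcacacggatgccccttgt
*Fbxo21*, chr5:118114585-118114784, plus strand: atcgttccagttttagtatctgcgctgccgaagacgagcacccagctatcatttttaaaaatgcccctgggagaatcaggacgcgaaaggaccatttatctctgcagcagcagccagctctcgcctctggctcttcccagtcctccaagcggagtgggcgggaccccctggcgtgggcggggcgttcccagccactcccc
In *Trim63* the steroid receptor motif and the FoxO motif adjoin without overlap, and the FoxO motif begins at position -194 from the start. The FoxO motif was found in 1 of the 9 windows and in 3.65% of all 32851 RefSeq promoters of this length. The steroid receptor motif was in 3 of the 9 windows (*Trim63*, *Trim54* and 1 of the 2 of *Fbxo40*) and in 19.0% of all promoters. The E-box CANNTG, not capitalized here, was in 6 of the 9 windows and in 72.3% of all promoters. The *Fbxo21* window held none of these motifs. A match is a description of the letters and not a bound site.

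TPM are per length, so levels can be compared between genes. *Trim54* had the highest mean level over the 8 muscles (385 TPM, percentile 98.6 of the genes tested), followed by *Trim63* (222 TPM, percentile 97.4), *Fbxo40* (156 TPM), *Fbxo32* (106 TPM) and *Trim55* (53.9 TPM). *Ubr2* stood at 25.0 TPM. A lower group was made of *Trim32* (5.87 TPM), *Fbxo30* (5.74 TPM), *Fbxo21* (4.32 TPM) and *Cblb* (3.86 TPM, percentile 31.2). In this order the ranges over the 8 muscles were apart between *Trim54* and *Trim63*, between *Fbxo32* and *Trim55*, between *Trim55* and *Ubr2*, and between *Ubr2* and *Trim32*. All other neighbors overlapped. The 5 ligases best known from striated muscle, the MuRF proteins, atrogin-1 and *Fbxo40*, thus filled the top 5 places. Every ligase exceeded 3 TPM in every muscle, so none passed the filter on low values through 1 group alone. Summed over the 10 genes, the level was 962 ± 92.9 TPM with NT siRNAs and 972 ± 55.4 TPM in the knockdown muscles (SD, n = 4 for each group), with overlapping ranges.

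**Figure D1:**
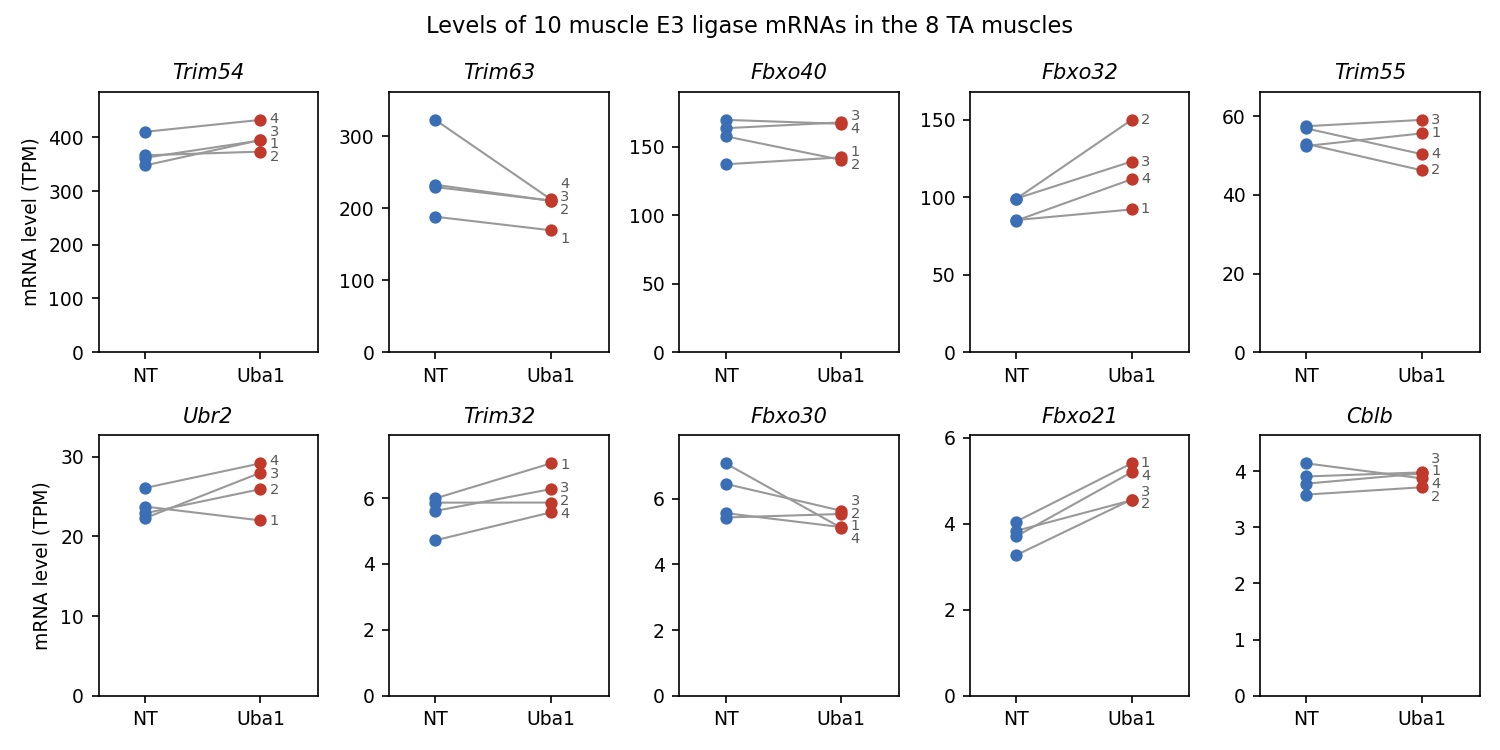
TPM (y axis, from 0) of the 10 ligase mRNAs in the 4 NT muscles (blue) and the 4 *Uba1* siRNA muscles (red), with a line and a number for each mouse, ordered by mean level. In these TPM as deposited the groups are apart only for *Fbxo21*, while *Fbxo32* is higher and *Trim63* lower in the knockdown leg of all 4 mice.

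The MuRF proteins, encoded by *Trim63*, *Trim54* and *Trim55*, are RING ligases of the sarcomere that bind titin and each other. *Trim63* was at 188, 232, 229 and 322 TPM in NT replicates 1 to 4 and at 169, 210.1, 210.3 and 212 TPM with *Uba1* siRNAs. It was lower in the knockdown leg of 4 of 4 mice, yet the groups overlapped, since NT replicate 1 was below 3 of the knockdown muscles. Its log2FC was -0.26 (95% interval -0.60 to 0.088; adjusted p = 0.377, limma) and -0.38 after median-ratio scaling (interval up to 0.015). The mouse as a block gave an unadjusted P of 0.0314 in limma and an adjusted p of 0.166. NT replicate 4 was the highest muscle by far, and without it the log2FC was -0.11. *Trim54* (MuRF3), which also associates with microtubules, was at 362, 367, 348 and 410.25 TPM with NT siRNAs and at 394, 373, 395 and 433 TPM with *Uba1* siRNAs. It was higher in the knockdown leg of 4 of 4 mice, by 0.027 to 0.18 on the log2 scale, with overlapping groups. The log2FC was 0.10 (interval -0.064 to 0.27; adjusted p = 0.454, limma), close to the median of all genes, -0.019 after scaling and 0.063 without knockdown replicate 4. *Trim55* (MuRF2) was at 52.4, 52.9, 57.5 and 56.9 TPM with NT siRNAs and at 55.6, 46.2, 59.1 and 50.3 TPM with *Uba1* siRNAs. It was higher in 2 mice and lower in 2, and the groups overlapped. The log2FC was -0.060 (interval -0.25 to 0.13; adjusted p = 0.696, limma). After scaling it was -0.18, with an unadjusted P of 0.00963 and an adjusted p of 0.289 in limma.

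The F-box proteins are the substrate-binding parts of SKP1-cullin ligases. *Fbxo32* was at 85.2, 98.9, 99.1 and 84.8 TPM in NT replicates 1 to 4 and at 92.1, 149.9, 123 and 112 TPM with *Uba1* siRNAs. Knockdown replicate 1 lay within the NT range and the other 3 above it, and the level was higher in the knockdown leg of 4 of 4 mice. The log2FC was 0.35 (interval 0.044 to 0.66) with an unadjusted P of 0.0292 and an adjusted p of 0.236 in limma. After median-ratio scaling it was 0.23 (interval -0.14 to 0.60). The mouse as a block gave an unadjusted P of 0.00477 and an adjusted p of 0.0985 in limma. With the block and scaling the unadjusted P was 0.0705 in limma. Knockdown replicate 2 held the highest *Fbxo32*, the lowest *Uba1* and the highest mitochondrial share (50.3%), together with the lowest sum of fiber markers (96706 TPM). Without it the log2FC was 0.23 (unadjusted P = 0.0673, limma). With the TPM of all muscles recomputed without mitochondrial genes it was 0.37 (unadjusted P = 0.0589, limma).

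*Fbxo21* (SMART) and *Fbxo30* (MUSA1) are FoxO-dependent ligases known from denervated and fasted muscle. *Fbxo21* was at 4.05, 3.83, 3.27 and 3.70 TPM with NT siRNAs and at 5.40, 4.54, 4.56 and 5.20 TPM with *Uba1* siRNAs. On the deposited scale all 4 knockdown muscles were above all 4 NT muscles. The means were 3.71 ± 0.330 and 4.93 ± 0.440 TPM (SD, n = 4 each), with a log2FC of 0.33 (standard error 0.0832; interval 0.14 to 0.52). The unadjusted P was 0.00309 and the adjusted p 0.149 in limma, and 0.0803 with the mouse as a block, the smallest adjusted p of any ligase under any setting tried. After median-ratio scaling its log2FC was 0.23, with an unadjusted P of 0.0264 and an adjusted p of 0.386 in limma. Over the alternative settings the log2FC of *Fbxo21* ran from 0.21 to 0.40. *Fbxo30*, by contrast, was at 5.56, 5.43, 6.45 and 7.08 TPM with NT siRNAs and at 5.14, 5.54, 5.64 and 5.12 TPM with *Uba1* siRNAs. It was lower in the knockdown leg of 3 of 4 mice and the groups overlapped. Its log2FC was -0.16 (interval -0.36 to 0.037; adjusted p = 0.346, limma), -0.26 after scaling (unadjusted P = 0.0171, limma) and -0.098 without NT replicate 4.

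*Fbxo40* and *Cblb* are ligases that direct IRS1 to degradation, the first in differentiated muscle fibers and the second in unloaded muscle. *Fbxo40* was at 137, 158, 164 and 169.8 TPM with NT siRNAs and at 142, 141, 168 and 167 TPM with *Uba1* siRNAs. All 4 knockdown muscles lay inside the NT range, with 2 mice higher and 2 lower. The log2FC was -0.025 (interval -0.23 to 0.18; adjusted p = 0.889, limma) and -0.15 after scaling. *Cblb* was at 3.78, 3.58, 3.90 and 4.14 TPM with NT siRNAs and at 3.96, 3.71, 3.98 and 3.87 TPM with *Uba1* siRNAs. All 4 knockdown values lay inside the NT range. Its log2FC was 0.0097 (interval -0.14 to 0.16; adjusted p = 0.943, limma) and -0.087 after scaling, so a change of more than 0.16 in either direction lay outside the interval on the first scale.

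*Trim32* encodes a ligase for desmin and other cytoskeletal proteins, and its loss causes limb-girdle muscular dystrophy. It was at 5.99, 5.86, 5.61 and 4.72 TPM with NT siRNAs and at 7.05, 5.86, 6.27 and 5.56 TPM with *Uba1* siRNAs. The knockdown leg was higher in 4 of 4 mice, though in mouse 2 only by 0.00057 on the log2 scale, and the groups overlapped. The log2FC was 0.14 (interval -0.073 to 0.34; adjusted p = 0.432, limma) and 0.031 after scaling. It was 0.072 without NT replicate 4 and 0.079 without knockdown replicate 1. *Ubr2* encodes an N-degron ligase linked to wasting in cancer cachexia. It was at 23.8, 22.9, 22.3 and 26.1 TPM with NT siRNAs and at 22.0, 25.9, 28.0 and 29.2 TPM with *Uba1* siRNAs. Mouse 1 was lower in the knockdown leg and the other 3 higher, with overlapping groups. The log2FC was 0.13 (interval -0.077 to 0.35; adjusted p = 0.441, limma) and 0.018 after scaling. It was 0.21 without knockdown replicate 1 (unadjusted P = 0.0214, limma) and 0.084 without knockdown replicate 4.

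**Figure D2:**
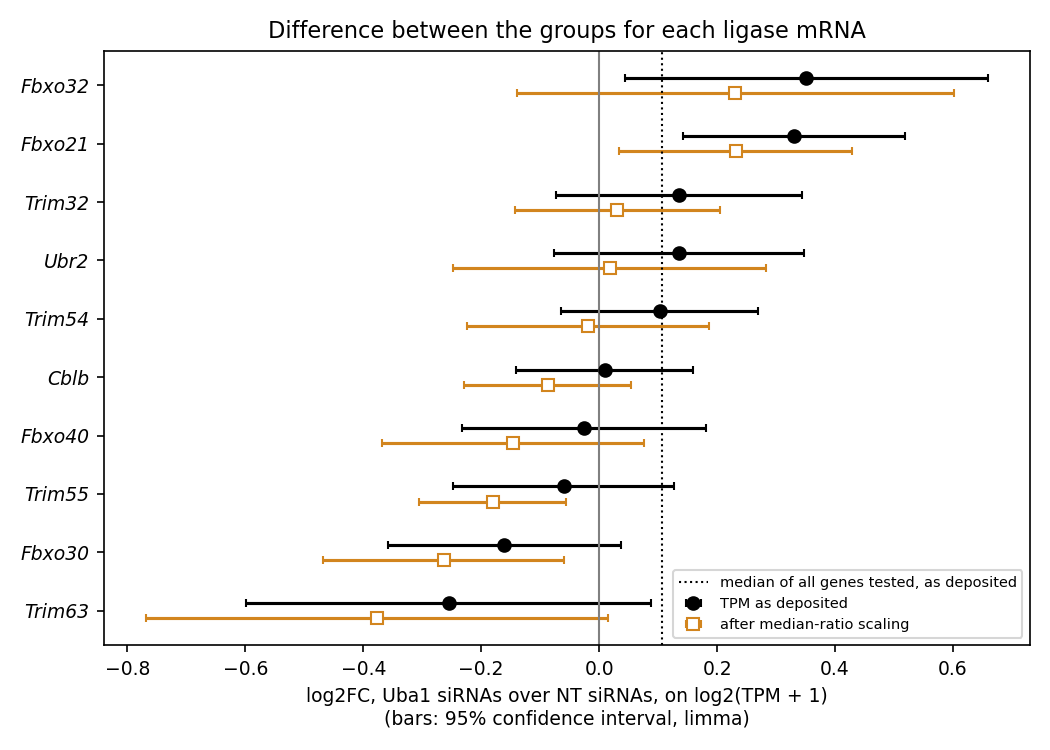
log2FC of each ligase mRNA (x axis, *Uba1* over NT siRNAs on log2(TPM + 1)) with its 95% confidence interval from limma, for the TPM as deposited (black) and after median-ratio scaling (orange), n = 4 muscles per group. The dotted line is the median of all genes tested (0.11), and *Fbxo32* and *Fbxo21* lie farthest to the right of it and *Trim63* farthest to the left.

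The counts of ligases past each threshold are given beside the share of all genes. In limma 0 of the 10 passed an adjusted p of 0.05, against 0.0260% of the 11530 genes tested, 0 of the 10 with the mouse as a block, against 0.494%, and 0 of the 10 with the block and scaling, against 0.659%. At an unadjusted P under 0.05 in limma, 2 of 10 were higher (*Fbxo32* and *Fbxo21*), against 16.0% of all genes, and 0 of 10 were lower, against 1.98%. With the block the counts were 2 higher, against 22.4%, and 1 lower (*Trim63*), against 2.80%. After median-ratio scaling, 1 was higher (*Fbxo21*), against 4.43%, and 2 were lower (*Fbxo30* and *Trim55*), against 6.18%. With both the block and scaling, 1 was higher (*Fbxo21*), against 6.96%, and 4 were lower (*Trim63*, *Trim55*, *Fbxo30* and *Fbxo40*), against 8.76%. The Kruskal-Wallis test, which can give no P below 0.0209 here, had 1 of 10 higher (*Fbxo21*) under an unadjusted 0.05, against 17.5% of all genes, 0 of 10 lower, against 1.71%, and 0 after adjustment. On the deposited scale, groups did not overlap, with *Uba1* above NT siRNAs, for 1 ligase (*Fbxo21*) and for 10.6% of all genes. The reverse was found for 0 ligases and 1.01% of all genes. How many of all genes were higher in 4 of 4 mice was not counted. The median log2FC of the 10 ligases was 0.056, below the 0.11 of all genes, and -0.053 after scaling. On the deposited scale 6 were above 0 and 4 below, and after scaling 4 above and 6 below, so the direction of *Trim54* and *Cblb* depended on the scale. The other 8 kept their sign.

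**Figure D3:**
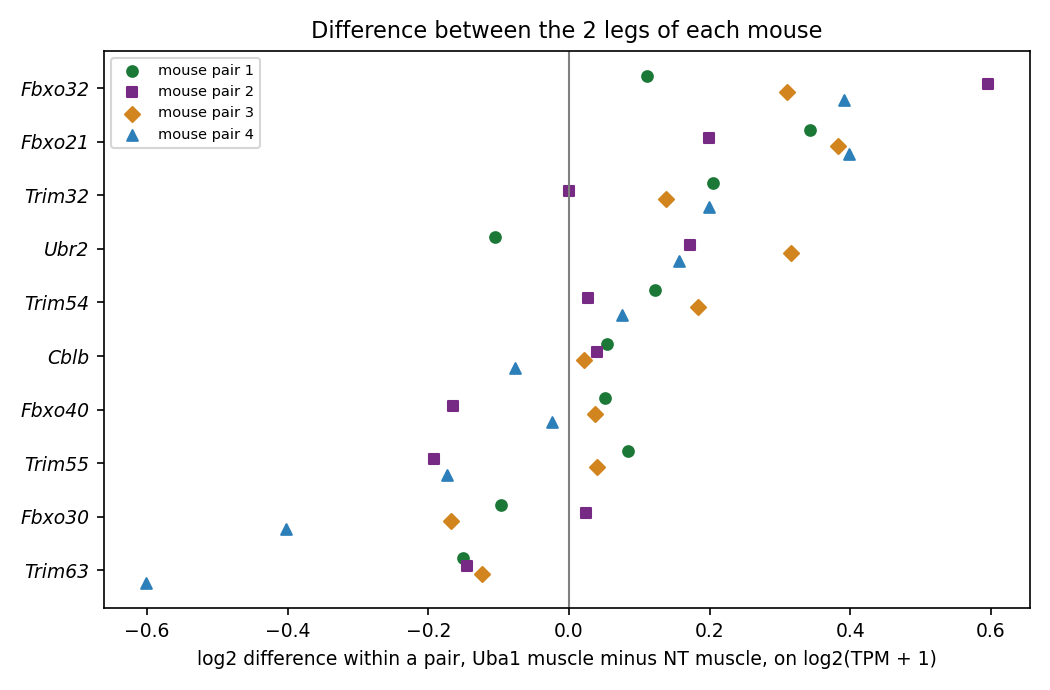
Difference between the legs of each mouse (x axis, *Uba1* muscle minus NT muscle on log2(TPM + 1)) for the 10 ligases, with a symbol for each of the 4 mice. All 4 mice lie above 0 for *Fbxo32*, *Fbxo21*, *Trim32* and *Trim54* and below 0 for *Trim63*, where mouse 4 (-0.60) is far from the other 3. On this scale 81.8% of all genes tested had a log2FC above 0, and their share with all 4 mice above 0 was not counted.

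*Trim63* and *Fbxo32* are usually read together as markers of atrophy, and here their values went opposite ways. The interval of *Trim63* included 0 on both scales, and that of *Fbxo32* included 0 after scaling. The ratio of *Trim63* to *Fbxo32* TPM within a muscle does not depend on how muscles are scaled to each other. It was 2.21, 2.35, 2.31 and 3.80 in NT replicates 1 to 4 and 1.84, 1.40, 1.71 and 1.90 with *Uba1* siRNAs. Every knockdown muscle was below every NT muscle, and the means were 2.67 ± 0.758 and 1.71 ± 0.222 (SD, n = 4 each). This ratio was formed after the values of both genes were seen, and it is given as a description with no test. Within the MuRF genes, *Trim63* made up 31.2%, 35.7%, 36.1% and 40.8% of the summed TPM with NT siRNAs and 27.3%, 33.4%, 31.7% and 30.5% with *Uba1* siRNAs. The share was lower in the knockdown leg of all 4 mice, with overlapping groups. The summed level of the MuRF genes was 669 ± 82.6 and 652 ± 34.6 TPM.

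**Figure D4:**
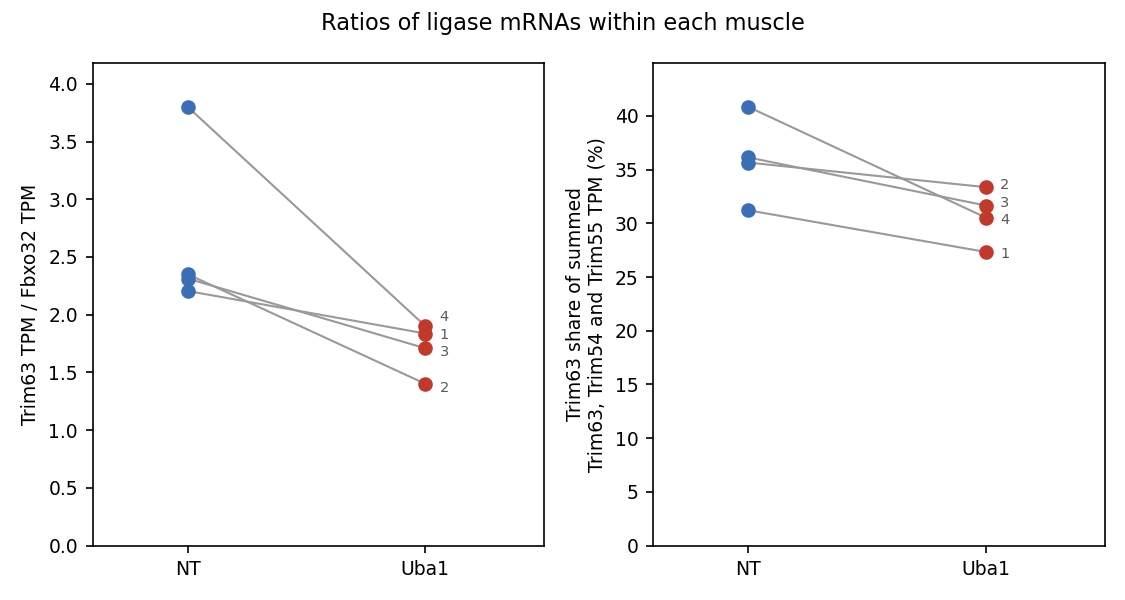
Ratio of *Trim63* to *Fbxo32* TPM (left, y axis from 0) and the share of *Trim63* in the summed TPM of *Trim63*, *Trim54* and *Trim55* (right, percent, y axis from 0) in each muscle, with NT muscles in blue, *Uba1* muscles in red and a numbered line per mouse. The ratio is between 1.40 and 1.90 in the knockdown muscles and from 2.21 to 3.80 in the NT muscles.

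Among the 8 muscles, *Trim63* varied most like *Fbxo30* (Pearson r = 0.82 on log2(TPM + 1) over 8 muscles, 0.75 for deviations from the group means) and opposite to *Trim32* (r = -0.92, and -0.89 for the deviations). *Fbxo32* and *Fbxo21*, the highest of the ligases in log2FC, had r = 0.32 over the 8 muscles but -0.75 for the deviations from the group means, so they did not vary together within a group. These are 3 of 45 pairs among the 10 genes, the muscles of a mouse are not independent, and all genes of a muscle share a library. Over all genes tested, the mRNAs most like *Fbxo32* were *Ankrd33b* (r = 0.96), *Mmp9* (r = 0.95) and the mitochondrial ribosomal RNA *mt-Rnr2* (r = 0.95). Those most like *Trim63* were *Zbtb2* (r = 0.91), *Slc38a2* (r = 0.90), an amino acid transporter, and *Mideas* (r = 0.90).

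Of 9 close relatives of the ligases, 6 passed the filter on low values, and 5 of these had a log2FC above 0 (median 0.19), as did 5 after scaling (median 0.088). None passed the adjusted p. In limma 3 were higher and 0 lower at an unadjusted P under 0.05, beside 16.0% and 1.98% of all genes, and after scaling 0 and 0, beside 4.43% and 6.18%. With the mouse as a block 5 were higher and 0 lower, beside 22.4% and 2.80%, and with the block and scaling 2 and 1, beside 6.96% and 8.76%. *Ubr1*, the N-degron ligase nearest to *Ubr2*, was at 6.65 ± 1.44 TPM with NT siRNAs and 8.56 ± 0.353 TPM with *Uba1* siRNAs (log2FC 0.34, adjusted p = 0.204, limma), higher in 4 of 4 mice. *Ubr3* was at 66.4 ± 13.4 and 82.7 ± 6.25 TPM (log2FC 0.33, adjusted p = 0.234, limma), also higher in 4 of 4 mice, but in mouse 4 only by 0.00027. After scaling *Ubr1* was at 0.23 (unadjusted P = 0.111, limma) and *Ubr3* at 0.21 (unadjusted P = 0.199, limma). *Fbxo25*, the relative of *Fbxo32*, had a log2FC of 0.21 (adjusted p = 0.240, limma), *Cbl* of 0.16 and *Trim3* of 0.15. After scaling these were 0.11, 0.070 and 0.039, and *Cbl* was at 0.105 without knockdown replicate 3 on the deposited scale. *Trim72* (MG53), a membrane repair protein of muscle, was at 152 ± 9.34 and 145 ± 30.2 TPM with a log2FC of -0.089. After scaling the log2FC of *Trim72* was -0.21 (unadjusted P = 0.0513, limma). Of 32 other ligases and cullin subunits of muscle, 24 were above 0, with a median of 0.115 beside 0.106 for all genes. At an unadjusted P under 0.05 in limma, 4 were higher and 1 lower, beside 16.0% and 1.98% of all genes, and none passed the adjusted p. After scaling 16 were above 0 and 16 below, and the calls turned to 0 higher and 6 lower, beside 4.43% and 6.18% of all genes. With the mouse as a block 6 were higher and 0 lower, beside 22.4% and 2.80%. They include *Itch* (5.05 ± 0.430 and 6.03 ± 0.361 TPM, log2FC 0.22, and 0.11 after scaling, groups apart on the deposited scale), *Xiap* (log2FC 0.26, and 0.16 after scaling) and *Siah2* (log2FC -0.20, unadjusted P = 0.0427 in limma and 0.0669 with the block). After scaling the log2FC of *Siah2* was -0.31 (unadjusted P = 0.00533, limma).

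Of 38 upstream regulators tested (FoxO, insulin, glucocorticoid, myostatin and cytokine pathways), 28 were above 0 (median 0.14). In limma, 8 of 38 were higher and 3 lower at an unadjusted P under 0.05, beside 16.0% and 1.98% of all genes, and none passed the adjusted p. After scaling 21 were above 0, with 3 higher and 4 lower, beside 4.43% and 6.18% of all genes. With the mouse as a block 1 passed the adjusted p, beside 0.494% of all genes, and 3 with the block and scaling, beside 0.659%. The largest difference in this list was in *Irs2*, an adapter of the insulin receptor that FoxO is known to induce. It was at 14.6, 27.0, 20.6 and 37.1 TPM with NT siRNAs and at 6.30, 9.23, 10.4 and 11.6 TPM with *Uba1* siRNAs, with all knockdown muscles below all NT muscles. The log2FC was -1.27 (standard error 0.266; adjusted p = 0.129 in limma, and 0.0113 with the mouse as a block). *Ppargc1a*, a coactivator of mitochondrial genes, was at 9.10 ± 1.56 and 12.1 ± 0.830 TPM (log2FC 0.39, groups apart on the deposited scale, adjusted p = 0.168, limma). After scaling its log2FC was 0.28 (unadjusted P = 0.0421, limma). *Gdf11*, a ligand related to myostatin, had a log2FC of 0.55 and *Smad3*, a transducer of these ligands, of 0.36, both with an unadjusted P under 0.05 in limma. After scaling *Gdf11* was at 0.44 (unadjusted P = 0.0201, limma) and *Smad3* at 0.24 (unadjusted P = 0.103, limma). *Foxo1* and *Foxo3*, named here after their values were seen, had log2FC values of 0.19 and 0.28 (adjusted p = 0.237 for *Foxo3*, limma). The median of all genes was 0.11. The other FoxO genes of the list were *Foxo4* (88.6 ± 7.78 and 97.0 ± 10.2 TPM) and *Foxo6* (5.22 ± 0.505 and 5.55 ± 0.620 TPM). The groups overlapped for each of these FoxO genes.

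The other genes of the atrophy programme gave a mixed picture. Of 34 tested, 20 were above 0 and 14 below (median 0.041). At an unadjusted P under 0.05 in limma, 2 of 34 were higher and 5 lower, beside 16.0% and 1.98% of all genes, and none passed the adjusted p. After scaling 7 were above 0 and 27 below (median -0.079), with 1 higher and 8 lower, beside 4.43% and 6.18%. With the mouse as a block 2 passed the adjusted p (*Tgif1* and *Ddit4*), beside 0.494% of all genes. The metallothioneins *Mt1* and *Mt2* are metal-binding stress proteins known to increase in wasting muscle. *Mt2* was at 80.5, 163, 135 and 132 TPM with NT siRNAs and at 66.0, 34.4, 29.6 and 65.8 TPM with *Uba1* siRNAs, with the groups apart (log2FC -1.41, adjusted p = 0.129 in limma, and 0.0838 with the mouse as a block). *Mt1* was at 86.7 ± 25.2 and 46.5 ± 14.3 TPM with overlapping groups (log2FC -0.89, adjusted p = 0.165 in limma, and 0.0795 with the block). *Tgif1*, a repressor in TGF-β signaling, was at 5.21, 8.79, 7.16 and 8.72 TPM with NT siRNAs and at 3.00, 3.50, 4.02 and 4.94 TPM with *Uba1* siRNAs, also apart. Its log2FC was -0.79 (adjusted p = 0.129 in limma, and 0.0288 with the mouse as a block). *Ddit4* (REDD1), an inhibitor of mTORC1, had the opposite sign, at 25.3, 26.3, 11.8 and 13.9 TPM with NT siRNAs and 38.2, 44.4, 23.9 and 34.3 TPM with *Uba1* siRNAs. It was higher in the knockdown leg of 4 of 4 mice with overlapping groups, and its log2FC was 0.88 (adjusted p = 0.182 in limma, 0.0359 with the mouse as a block and 0.0686 with the block and scaling).

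Of 27 substrates and partners of the ligases tested, 13 were above 0 and 14 below (median -0.027, and -0.15 after scaling), and none past the adjusted p on either scale without the block. At an unadjusted P under 0.05 in limma 5 were higher and 1 lower, beside 16.0% and 1.98% of all genes, and after scaling 0 higher and 9 lower, beside 4.43% and 6.18%. The lower gene on the deposited scale was *Irs1*, the insulin receptor substrate on which *Fbxo40* and *Cblb* act. *Irs1* was at 21.1, 15.5, 21.4 and 16.4 TPM with NT siRNAs and at 14.2, 6.78, 14.9 and 11.5 TPM with *Uba1* siRNAs. All knockdown muscles were below all NT muscles, with a log2FC of -0.65 (standard error 0.218; adjusted p = 0.197 in limma, 0.0641 with the mouse as a block, and 0.0411 with the block and scaling). Without knockdown replicate 2 the log2FC of *Irs1* was -0.42. The receptor itself, *Insr*, was at 10.8 ± 1.59 and 14.0 ± 1.16 TPM (log2FC 0.35, adjusted p = 0.174, limma), higher in 4 of 4 mice. After scaling its log2FC was 0.24 (unadjusted P = 0.0743, limma). Both substrates of *Trim32* named by the rule, *Pias4* (log2FC 0.24) and *Dtnbp1* (log2FC 0.22), were apart between the groups on the deposited scale, with *Uba1* above NT siRNAs. After scaling their log2FC values were 0.13 and 0.11 (unadjusted P = 0.0846 and 0.269, limma). Of 10 denervation genes tested, 8 were below 0 (median -0.28, and -0.39 after scaling), and 1 was higher and 0 lower at an unadjusted P under 0.05 in limma, beside 16.0% and 1.98% of all genes. After scaling 0 were higher and 1 lower, beside 4.43% and 6.18%, and with the block and scaling 0 and 2, beside 6.96% and 8.76%. The higher gene, *Musk*, the receptor kinase of the neuromuscular junction, was at 2.47 ± 0.941 and 3.66 ± 0.559 TPM (log2FC 0.46). After scaling its log2FC was 0.37 (unadjusted P = 0.0693, limma), and without NT replicate 1 it was 0.295.

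**Figure D5:**
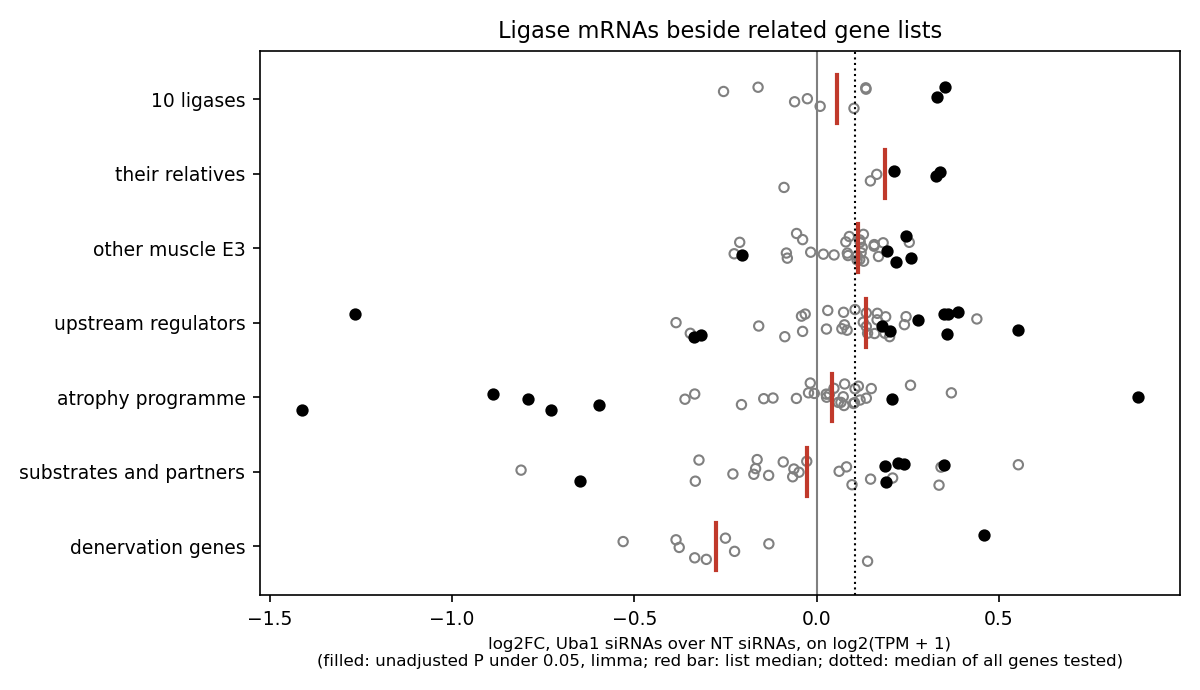
log2FC (x axis, *Uba1* over NT siRNAs on log2(TPM + 1)) of every tested gene in 7 lists, 1 circle per gene, filled where the unadjusted P in limma is under 0.05, with the list median as a red bar and the median of all genes as a dotted line. The 10 ligases lie between -0.26 and 0.35, and *Mt2* (-1.41) and *Irs2* (-1.27) lie farthest from 0.

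Markers of other cell types were summed in each muscle for comparison. Fibroblast markers summed to between 561 and 1157 TPM with NT siRNAs and between 729 and 1431 TPM with *Uba1* siRNAs, higher in the knockdown leg of 4 of 4 mice, and 2 of the 8 were higher at an unadjusted P under 0.05 in limma, beside 16.0% of all genes. With the mouse as a block 4 of the 8 were, beside 22.4%, and after scaling 1, beside 4.43%. Macrophage markers ran from 155 to 493 TPM and from 143 to 516 TPM, with 0 of 9 under an unadjusted P of 0.05 in limma. Satellite cell markers summed to between 16.7 and 22.5 and between 18.1 and 23.7 TPM (of 4 tested, 1 higher and 1 lower at that P), and endothelial markers to between 137 and 203 and between 151 and 188 TPM (0 of 8). Schwann cell markers ran from 42.7 to 67.9 and from 34.6 to 80.4 TPM (of 5 tested, 1 higher, beside 16.0%). Fat cell markers summed to between 65.5 and 77.6 and between 60.1 and 78.1 TPM, but of the 4 tested 3 had a log2FC below 0 (median -0.61), 1 of them at that P. The part of these cells in the levels of the ligases was not tested.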

How the data were processed

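TA muscle RNA was prepared with the TruSeq RNA v2 kit, which keeps no strand, and sequenced in paired-end mode. Per the study's methods, trimmed reads were mapped to GRCm39 in CLC Genomics Workbench. The authors deposited TPM per gene, which sum to 1000000 in each muscle. The annotation and the handling of reads that match several genes are not given in the sources used here. TPM keep no read total, so no counting interval is given, and the 4 muscles per group limit the precision.

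The 11530 genes that reached 1 TPM in 4 or more of the 8 muscles were tested with limma 3.58.1 (lmFit, eBayes with trend, R 4.3.3) on log2(TPM + 1), unpaired as in the study's own Kruskal-Wallis test, with Benjamini-Hochberg adjustment over all of them. The scripts were tested on simulated data. The replicate numbers pair the legs of a mouse by design. The correlations of paired muscles' deviations from the group means were -0.00037, 0.20, 0.58 and 0.54. Alternatives were a pseudocount of 0.1, no filter, a mean of 5 TPM or more, median-ratio scaling, quantile normalization, TPM without the 37 mitochondrial genes, the replicate block with and without scaling, the Kruskal-Wallis test and leaving out each muscle. Most of these were also run on the named genes of the other lists, a choice made after seeing the data.

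The ligases and the lists were chosen with earlier results of these data known. Named genes were the 10 ligases, *Uba1*, every tested relative, for each other list up to 4 genes with the largest log2FC at an unadjusted P under 0.05, and the 3 genes most correlated with *Fbxo32* and with *Trim63*. A gene that this rule names is not reported here. Positions come from GENCODE M39, and promoter sequences from RefSeq. No protein sequences were used here.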

Additional observations from a re-analysis of the deposited data

Results flagged for a closer look

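In the knockdown group, *Trim63* in replicate 1 was at 169 TPM while the other 3 muscles were between 210.1 and 212 TPM. Its gap to the nearest muscle was 0.952 of the range of the group, above the critical value of Dixon's test for 4 muscles. This was 1 of 22 groups examined, and chance alone gives about 1 in 20. NT replicate 1 of the same mouse also had the lowest *Trim63* of its group (188 TPM).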

How the results depend on the processing

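No ligase passed the adjusted p under any of the 17 alternatives. Of 168 values of single ligases, 158 kept their direction and 10 reversed. *Trim54* was at -0.019 and *Cblb* at -0.087 (log2FC) with median-ratio scaling, with or without the block, and *Cblb* at -0.11 with quantile normalization and -0.017 without NT replicate 2. *Trim55* was at 0.00035 without *Uba1* replicate 2. *Fbxo40* was at 0.013 without NT replicate 4, 0.012 without *Uba1* replicate 1 and 0.018 without *Uba1* replicate 2. Outside this count, the relative *Trim72* was at 0.019 without *Uba1* replicate 2. With a muscle left out, the ranges were -0.12 to 0.00035 for *Trim55*, -0.088 to 0.018 for *Fbxo40*, -0.017 to 0.038 for *Cblb* and -0.20 to 0.019 for *Trim72*. A mean of 5 TPM or more removed *Fbxo21* and *Cblb*.

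The number of genes past the adjusted p in limma was 3. It was 23 after median-ratio scaling, 11 when a mean of at least 5 TPM was asked for, 28 after quantile normalization, 13 without mitochondrial genes, 57 with the replicate block, 76 with the block and scaling, and 0 with the Kruskal-Wallis test, where 2210 had an unadjusted P under 0.05 against 2072 in limma. Leaving out each muscle gave 2 to 39 genes, with 39 without *Uba1* replicate 4, 6 without NT replicate 1, and 5 without NT replicate 3 or *Uba1* replicate 2. Ligases higher at an unadjusted P under 0.05 numbered 1 with the stricter filter, median-ratio scaling, the block with scaling, the removal of mitochondrial genes or Kruskal-Wallis, 0 with quantile normalization, and 1 to 3 with a muscle left out, with 1 without NT replicate 1 or 4 or *Uba1* replicate 2 or 3. The share of all genes was 15.8% with the stricter filter, 22.0% without mitochondrial genes, 17.5% with Kruskal-Wallis, 4.45% with quantile normalization and 10.04% to 17.7% with a muscle left out. Ligases lower numbered 2 with median-ratio scaling or quantile normalization, 1 with the block, 4 with the block and scaling (8.76% of all genes), and 0 to 1 with a muscle left out, with 1 without NT replicate 1. Lower were 5.16% of all genes with quantile normalization and 1.52% to 2.45% with a muscle left out. The median log2FC of the ligases was -0.053 with median-ratio scaling, with or without the block, -0.016 with quantile normalization, and between 0.037 and 0.080 with a muscle left out. The cause of these changes was not tested.

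*Uba1* came to pass the adjusted p in limma at -1.98 under the replicate block (0.0278) or the stricter filter of 5 TPM (0.0466), at -2.09 with median-ratio scaling (0.0333, and 0.0274 with the block), at -2.06 with quantile normalization (0.0376) and at -1.996 without mitochondrial genes (0.0486). With a muscle left out it ran from -2.18 to -1.64, and passed without *Uba1* replicate 2 (0.00257) or 4 (0.0206) but not in the other 6 cases (up to 0.230). Of the named genes of other lists, the replicate block, with or without scaling, brought *Irs2*, *Tgif1*, *Ddit4* and *Irs1* past the adjusted p in 6 of 388 values, *Irs1* only with scaling (0.0411) and *Ddit4* only without it (0.0686 with scaling). Beside these and *Uba1*, the block moved no named gene past the adjusted p. At an unadjusted P of 0.05 in limma it moved *Trim63* (0.0314), *Cbl* (0.0483) and *Trim3* (0.0484) to under the threshold and *Siah2* (0.0669) to above it.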
